A study of Salmo salar with 13 samples.

Results

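The transcripts of 3 chromatin regulators, EP300, CREBBP and KMT2E, were followed in the saccus vasculosus (SV) of Atlantic salmon. The SV is a vascularised organ on the ventral side of the fish brain, behind the pituitary, and its coronet cells reach into the fluid of the third ventricle. The 3 transcripts were picked by identifier out of 146780 transcripts per library, because the study's own test had selected them as different between the groups below. The study had also placed all 3 in the same cluster, described as raised by seawater in the SP-hold group and not in the SPLL group. Their levels and fold changes are therefore given as a description and carry no test. As a background share only, a 4-group edgeR test run here called 0.0625% of 46395 transcripts tested.

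The fish were of the Aquagen commercial strain and were reared in freshwater under constant light from hatching. They were parr under a year old when short photoperiod began. They had no genetic change, and their sex was not determined. SP-hold FW fish (n = 4 libraries) had 16 weeks of short photoperiod and were collected in freshwater (FW). SP-hold SW fish (n = 3) had the same light history and then 24 h in seawater (SW). SPLL FW fish (n = 2) had 8 weeks of short photoperiod and 8 weeks of constant light (LL), which stimulates smoltification, and were collected in FW. SPLL SW fish (n = 4) had that history and then 24 h in SW. The seawater tank was lit constantly, so for SP-hold fish the change of salt and the change of light cannot be told apart. Each condition was kept in a pair of tanks, and which tank a library came from was not known here, so the spread between libraries may be partly that within a tank.

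Libraries held 15346418 to 26502552 estimated reads. One library stood apart in detection: in SPLL SW replicate 3, 54196 transcripts had at least 1 read, whereas elsewhere 62912 to 70193 did. The SV markers ependymin and parvalbumin (5 transcripts, 0 of them at 0) made up 6.12 to 11.5% of all TPM, the unit in which reads are divided by effective length and scaled to a fixed sum per library. The 11 haemoglobin transcripts that mark red blood cells (0 of them at 0) made up 3.69 to 5.19% in SP-hold FW, 2.60 to 3.80% in SP-hold SW, 2.67 to 5.54% in SPLL FW and 4.42 to 10.9% in SPLL SW.

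EP300 and CREBBP encode paired lysine acetyltransferases that are recruited by transcription factors, CREB among them in the case of CREBBP, and in mammals they acetylate histones at enhancers and promoters of active genes. KMT2E carries the name of the KMT2 family, whose best known members methylate histone H3 at active genes. In mammals KMT2E reads methylated histone H3 through a PHD finger, and its own enzyme activity is doubtful. All are large nuclear proteins that many tissues use.

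The EP300 transcript (ENSSSAT00000003890) is 9183 bases long and belongs to gene ENSSSAG00000001794 at chr1:88155726-88179122 of the Ssal_v3.1 build. It was named by its zebrafish and mouse matches. The CREBBP transcript (ENSSSAT00000071779, 9554 bases) belongs to gene ENSSSAG00000040665 at chr2:65561113-65644216 and carried that name in salmon itself. The KMT2E transcript (ENSSSAT00000005295, 5310 bases) belongs to gene ENSSSAG00000002335 at chr17:63813484-63850008 and was named by its zebrafish and mouse matches. The salmon genome carries further copies of such genes: RefSeq places a gene named kmt2e on chromosome 7 and a gene named ep300b on chromosome 6, whereas the loci above overlap RefSeq genes without a descriptive symbol. In 13 of 13 libraries the estimated read number of each transcript was not whole, which means that some reads were shared out between related transcripts, and each level below is uncertain to that extent.

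Per unit length, KMT2E was the most abundant of the 3, with a mean of 9.09 ± 5.70 TPM (SD over 13 libraries). CREBBP had 4.64 ± 2.55 TPM and EP300 had 3.39 ± 1.89 TPM. By mean TPM they ranked 8700th, 15227th and 19311th of all transcripts. Between 242 and 1038 reads per library were assigned to EP300, 316 to 1348 to CREBBP and 261 to 1575 to KMT2E.

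All 3 transcripts were highest in SP-hold SW, the fish that met seawater straight from 16 weeks of short photoperiod. A rise with SW in SP-hold and none in SPLL is how the study described their cluster, so that pattern follows from the choice. In CPM, reads scaled to a fixed library total with TMM factors and not divided by length, the SP-hold SW mean was 1.63-fold that of SP-hold FW for EP300, 1.86-fold for CREBBP and 1.71-fold for KMT2E. In SPLL fish the response differed between the genes: EP300 and CREBBP stayed near their FW level after transfer, whereas KMT2E was at 0.599 of it. Over all transcripts tested, every SP-hold SW library lay above the other 10 for 3.69% of transcripts (above every SP-hold FW library for 7.7%), and since the genes were chosen on these groups nothing is read from their place among them. In whole SV tissue, fewer cells of a type and less RNA per cell cannot be told apart.

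**Figure D1:**
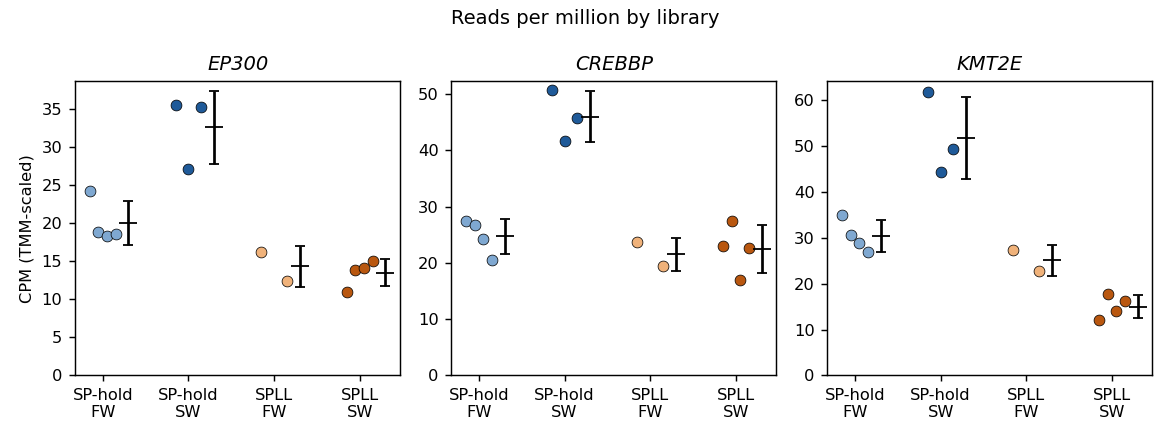
CPM of EP300, CREBBP and KMT2E in each of 13 libraries (points, in order of replicate number within a group) with the group mean and SD (bars). The 3 SP-hold SW libraries stand above the other 10 for each gene, and the 4 SPLL SW libraries lie below the other 9 for KMT2E alone.

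For EP300, the SP-hold FW libraries had 24.3, 18.8, 18.3 and 18.6 CPM. The SP-hold SW libraries had 35.5, 27.1 and 35.2 CPM, with no overlap between these groups. The SPLL FW libraries had 16.2 and 12.4 CPM, both under the lowest SP-hold FW library. The SPLL SW libraries had 11.0, 13.8, 14.1 and 15.04 CPM, above and below the lower SPLL FW library and all under the higher one. Ordered by group mean, EP300 went from 32.6 ± 4.78 CPM (SD, n = 3) in SP-hold SW to 20.0 ± 2.87 (n = 4) in SP-hold FW, 14.3 ± 2.68 (n = 2) in SPLL FW and 13.5 ± 1.75 (n = 4) in SPLL SW. The last groups differed by less than the spread between their libraries. The fitted log2 fold change of SW against FW was 0.70 (SE 0.16) in SP-hold and -0.09 (SE 0.19) in SPLL.

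For CREBBP, the SP-hold FW libraries had 27.4, 26.7, 24.3 and 20.5 CPM. The SP-hold SW libraries had 50.6, 41.6 and 45.7 CPM, each above every FW library. The SPLL FW libraries had 23.6 and 19.4 CPM, and the SPLL SW libraries had 23.0, 27.4, 17.0 and 22.6 CPM. Apart from SP-hold SW, the groups overlapped one another. Group means were 46.0 ± 4.51 CPM in SP-hold SW, 24.7 ± 3.13 in SP-hold FW, 22.5 ± 4.27 in SPLL SW and 21.5 ± 2.99 in SPLL FW. The log2 fold change of SW against FW was 0.90 (SE 0.16) in SP-hold and 0.06 (SE 0.19) in SPLL. Of the 3 genes CREBBP thus varied least outside SP-hold SW.

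For KMT2E, the SP-hold FW libraries had 35.0, 30.5, 28.8 and 26.9 CPM. The SP-hold SW libraries had 61.7, 44.2 and 49.3 CPM, above every other library. The SPLL FW libraries had 27.4 and 22.7 CPM, within or just under the range of SP-hold FW. The SPLL SW libraries had 12.0, 17.7, 14.0 and 16.2 CPM, below the other 9, as for 1.18% of all transcripts tested. KMT2E alone among the 3 was thus higher after SW in SP-hold and lower after SW in SPLL with no overlap on either side, an arrangement held by 1.2% of all transcripts tested (11.9% were lower without overlap in SPLL alone). Group means were 51.7 ± 8.97 CPM in SP-hold SW, 30.3 ± 3.48 in SP-hold FW, 25.04 ± 3.36 in SPLL FW and 14.99 ± 2.47 in SPLL SW. The log2 fold change of SW against FW was 0.77 (SE 0.16) in SP-hold and -0.74 (SE 0.18) in SPLL.

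Light history was compared next within each salinity. In FW, before any transfer, SPLL against SP-hold gave log2 fold changes of -0.48 (SE 0.19) for EP300, -0.20 (SE 0.19) for CREBBP and -0.27 (SE 0.19) for KMT2E. The FW groups were without overlap for EP300 alone, as for 11.3% of all transcripts in that direction. In SW the differences were larger, at -1.27 (SE 0.16) for EP300, -1.03 (SE 0.16) for CREBBP and -1.79 (SE 0.16) for KMT2E, so that SPLL SW stood at 0.414, 0.489 and 0.290 of the SP-hold SW level. Every SPLL SW library was below every SP-hold SW library for each gene, as for 12.5% of all transcripts. The change with SW in SPLL minus that in SP-hold was -0.79 (SE 0.25) for EP300, -0.83 (SE 0.25) for CREBBP and -1.51 (SE 0.24) for KMT2E on the log2 scale.

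Values per transcript length gave a less sharp picture. On the TPM scale EP300 was at 7.77, 3.53 and 6.75 TPM in the SP-hold SW libraries and at 4.03, 3.22, 2.85 and 2.41 TPM in SP-hold FW. SP-hold SW replicate 2 thus fell below the highest FW library. CREBBP was at 10.8, 5.27 and 8.67 TPM in SP-hold SW, all above the SP-hold FW libraries at 4.40, 4.38, 3.62 and 2.53 TPM. Its lowest SP-hold SW value lay just under SPLL SW replicate 2, at 5.36 TPM. KMT2E was at 24.0, 10.2 and 16.8 TPM in SP-hold SW, with replicate 2 again just under the highest SP-hold FW library at 10.4 TPM. In SPLL, KMT2E had 6.58 and 4.88 TPM in FW and 4.15, 7.14, 2.80 and 7.14 TPM in SW. The SPLL groups, apart in CPM, therefore overlapped in TPM for KMT2E, with means of 5.73 ± 1.20 TPM (n = 2) in FW and 5.31 ± 2.19 TPM (n = 4) in SW.

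**Figure D2:**
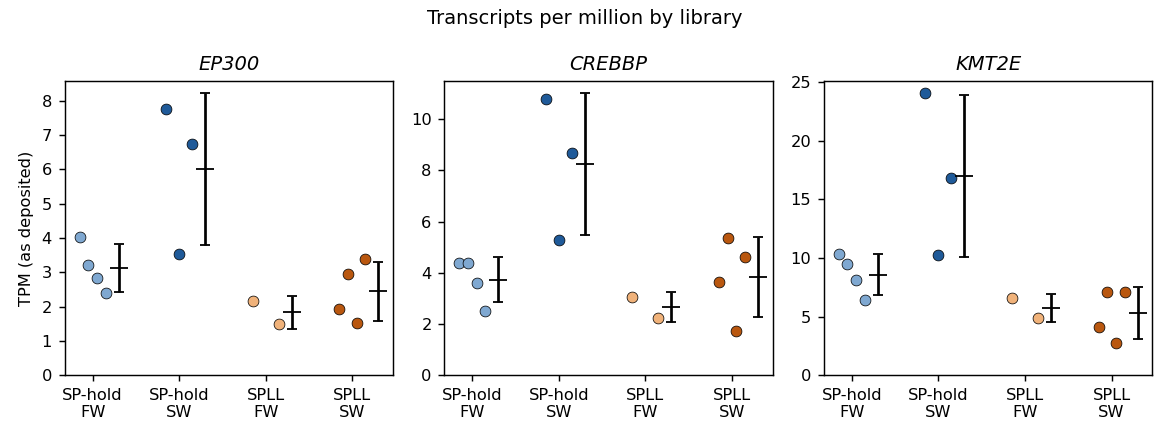
TPM of the 3 genes in each library as deposited (points, in order of replicate number) with the group mean and SD (bars). The SP-hold SW libraries spread more widely than in CPM, and for KMT2E the SPLL SW libraries, from 2.80 to 7.14 TPM, span both SPLL FW libraries.

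The CPM and TPM scales differ by library-wide scaling and by effective length, the length that Salmon assigned to a transcript in each library after its correction for GC bias. That length moved with the groups. For KMT2E it was 3556 to 4334 bases in SPLL SW, below every other library, and 4918 to 5063 bases in SP-hold SW, above every other library. SP-hold FW had 4369 to 4805 bases and SPLL FW had 4760 to 4763 bases. For EP300 it ran from 6955 to 8027 bases in SPLL SW and from 8732 to 9024 in SP-hold SW, and for CREBBP from 7683 to 8427 and from 8987 to 9126. A low CPM and a short effective length thus went together for KMT2E in SPLL SW, and the reverse held in SP-hold SW.

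With these effective lengths as an offset in the same edgeR fit, an alternative added after the values were seen, each gene stayed higher in SW than in FW in SP-hold, at log2 fold changes of 0.59 (SE 0.15) for EP300, 0.81 (SE 0.17) for CREBBP and 0.63 (SE 0.16) for KMT2E. In SPLL the KMT2E change with SW shrank to -0.42 (SE 0.18). The EP300 change there became 0.13 (SE 0.17) and the CREBBP change 0.22 (SE 0.19). The difference between SPLL and SP-hold in SW became -0.99 (SE 0.15) for EP300, -0.83 (SE 0.17) for CREBBP and -1.39 (SE 0.16) for KMT2E. Between the effects of SW in SPLL and in SP-hold, the difference became -0.46 (SE 0.23), -0.59 (SE 0.25) and -1.05 (SE 0.24). In limma on log2(TPM + 0.5), the KMT2E change with SW in SPLL was -0.17, on a scale where the median of all transcripts tested stood at 0.16.

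Transcript length itself also moved with the groups. The 3 transcripts are long, against a median of 3226 bases over all transcripts tested. The median deviation of transcripts over 5000 bases minus that of transcripts under 2000 bases, in log2 CPM, was 0.54, 0.26 and 0.38 in the SP-hold SW libraries. It was 0.30, 0.18, -0.09 and 0.15 in SP-hold FW, -0.21 and -0.33 in SPLL FW, and 0.01, 0.08, -0.68 and 0.11 in SPLL SW. Long transcripts as a class were therefore relatively high in SP-hold SW and low in SPLL FW and in SPLL SW replicate 3.

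**Figure D3:**
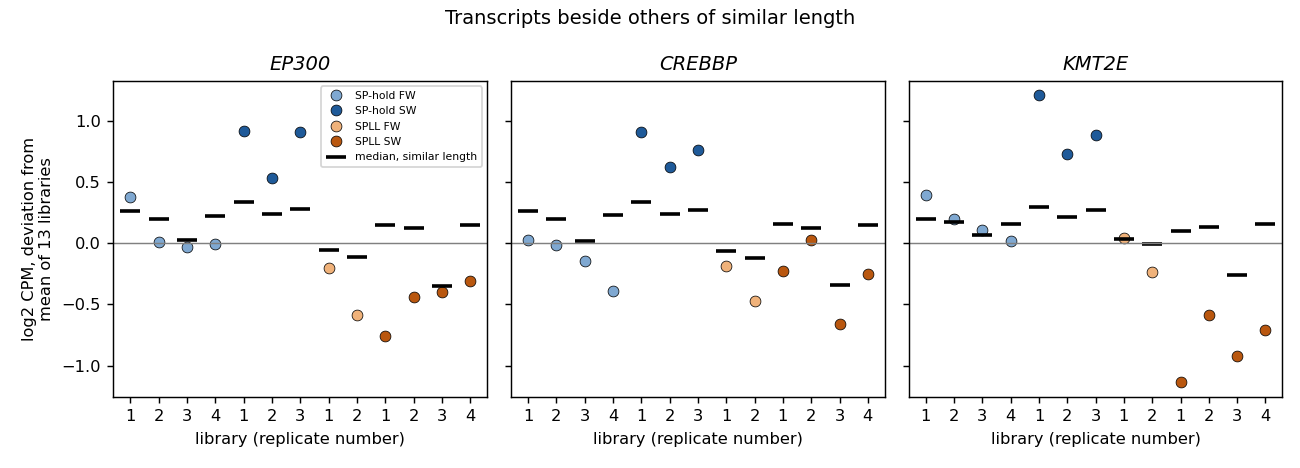
Deviation of log2 CPM from the mean of 13 libraries, by library, for each gene (points, coloured by group) and the median of transcripts tested within 25% of its length (black dashes). In SP-hold SW every point lies above its dash, and in SPLL SW every point lies below it, for each gene.

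Transcripts of similar length (within 25%) were set beside the genes, as a description, since the genes were chosen on these groups. For SW against FW in SP-hold, the median log2 fold change over 4287 transcripts of the length of EP300 was 0.08, and EP300 lay at percentile 85.4 of them. CREBBP lay at percentile 89.9 of its 3875 transcripts (median 0.07) and KMT2E at 87.5 of its 11409 (median 0.08). Each thus lay high in its length class, with many transcripts above it. For SPLL against SP-hold in SW, EP300 lay at percentile 11.2 (median -0.21), CREBBP at 16.2 (median -0.21) and KMT2E at 4.93 (median -0.19). For SPLL against SP-hold in FW they lay nearer the middle, at percentiles 36.9, 55.8 and 40.9, with medians of -0.27, -0.28 and -0.15.

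With each library's length trend removed, the log2 fold change of SPLL against SP-hold in FW became -0.17 for EP300 and 0.11 for CREBBP, so the sign for CREBBP turned. The same step gave -0.99 for EP300, -0.78 for CREBBP and -1.53 for KMT2E in SW. Some markers of other cells differed between the groups as well. Markers could be taken only from transcripts that were abundant or that the study had selected on these libraries. Nothing is therefore read from their differences. The 1 muscle marker, acta1b, held 0.0219 to 0.0346% of TPM in SP-hold SW, at most 0.0180% elsewhere, and 0.00908 to 0.0139% in SPLL SW. The 4 glial transcripts (fabp7, fabp7b, glula and slc1a2b, 0 of them at 0) summed to 0.376 to 0.522% in SP-hold and 0.531 to 0.853% in SPLL, without overlap. How often other sums of transcripts separate in this way was not computed. The 2 neuron transcripts overlapped, at 0.0118 to 0.0209% in SP-hold and 0.0157 to 0.0225% in SPLL. The 1 pituitary marker, gh1, scattered by library, from 0.000951 to 0.0411% within SPLL SW. The 1 endothelial marker, egfl7, was low, at 0.000283 to 0.000296% in SPLL FW and 0.000391 to 0.000696% in SPLL SW. In SP-hold it held 0.000299 to 0.000445% in FW and 0.000433 to 0.000682% in SW. The part of length, GC correction and these marker shares, those of red blood cells included, in the differences was not tested.

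**Figure D4:**
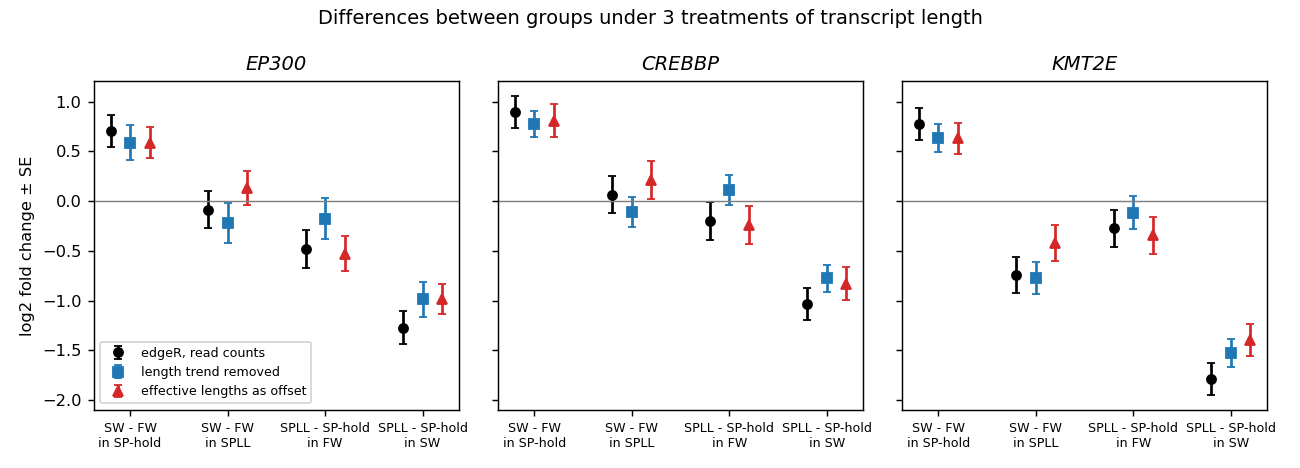
Log2 fold change ± SE of each gene in 4 contrasts, from read counts (black circles), with the length trend removed (blue squares) and with effective lengths as an offset (red triangles). The contrasts that involve SP-hold SW keep their direction in each, and those near 0 change sign for EP300 and CREBBP.

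Relative levels within a library were compared as ratios of TPM. KMT2E to CREBBP was 2.32 ± 0.163 in SP-hold FW, 2.04 ± 0.167 in SP-hold SW, 2.16 ± 0.0168 in SPLL FW and 1.41 ± 0.217 in SPLL SW. In SPLL SW it ran from 1.13 to 1.61, below the lowest value elsewhere, 1.94. KMT2E to EP300 was 2.76 ± 0.170, 2.83 ± 0.306, 3.14 ± 0.165 and 2.13 ± 0.237 in the same order, again lowest in SPLL SW. Effective length is already divided out of these ratios, and on this scale too KMT2E was lower relative to its companions in SPLL SW. From SPLL FW to SPLL SW, however, mean KMT2E went only from 5.73 to 5.31 TPM. CREBBP went from 2.66 to 3.84 TPM and EP300 from 1.84 to 2.45 TPM, so the ratios fell with higher companions as well. EP300 to CREBBP was 0.847 ± 0.104, 0.723 ± 0.0546, 0.688 ± 0.0309 and 0.673 ± 0.162. It ran from 0.734 to 0.953 in SP-hold FW and from 0.666 to 0.710 in SPLL FW, without overlap, and the SW groups overlapped each other. How often ratios of other transcripts separate in these ways was not computed, so nothing is read from the separations. Among single transcripts in CPM, 11.3% had every SPLL FW library below every SP-hold FW library.

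Across the 13 libraries, Pearson's r of log2 CPM was 0.93 between EP300 and KMT2E, 0.86 between EP300 and CREBBP and 0.82 between CREBBP and KMT2E. These correlations describe libraries that share group, depth and length trend, and no test was made. The study had clustered the 3 together on these same libraries, so high correlations and ranks follow from the choice. Among all other transcripts tested, KMT2E was the 42nd most like EP300, whereas CREBBP was the 310th. In the same ranking around KMT2E, EP300 came 67th and CREBBP 851st.

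Of 1263 other transcripts with a gene name and enough reads, those most like EP300 were Tasor, a member of a silencing complex in mammals (r = 0.965), the ubiquitin ligase HUWE1 (0.962), the ubiquitin protease USP34 (0.958) and ANKHD1 (0.955). Most like CREBBP were PLEKHH3 (0.976), another ANKHD1 transcript (0.972), PRRC2B (0.954), the muscle glycogen phosphorylase pygmb (0.951) and the corepressor RERE (0.949). Most like KMT2E were ubap2b (0.990), the scaffold gene TANC2 (0.978), the helicase HELZ (0.975), Zxdb (0.970) and spata2 (0.969). Apart from ANKHD1, which came up by different transcripts, no name given here was shared between these lists. Named transcripts are either abundant or were selected by the study on these libraries, so the neighbours come from a narrow choice.

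The other transcripts that the study's lists name Ep300, Crebbp or Kmt2 were examined beside the 3 genes. None of them was named CREBBP. The RefSeq copies kmt2e on chromosome 7 and ep300b on chromosome 6 were not examined. Another EP300 gene (ENSSSAG00000096929, chr3:66056743-66091944) had transcripts ENSSSAT00000182594 and ENSSSAT00000220776. ENSSSAT00000220776 had 23.5, 17.4, 10.6 and 11.8 CPM in SP-hold FW, 25.3, 22.9 and 25.5 in SP-hold SW, 10.8 and 8.11 in SPLL FW, and 5.73, 11.5, 8.06 and 8.67 in SPLL SW. One SP-hold FW library thus reached the SP-hold SW range, unlike for the EP300 gene on chromosome 1. ENSSSAT00000182594 was low, at 4.53 ± 0.490 CPM in SP-hold SW and 0.910 ± 0.227 CPM in SPLL SW. Both were lower in SPLL than in SP-hold in SW, by log2 fold changes of -1.53 (SE 0.29, edgeR FDR = 0.0293) and -2.31 (SE 0.39, edgeR FDR = 0.0193). These calls were lost in 7 and 4 of 13 fits with 1 library left out. Without SP-hold SW replicate 1 the FDR was 0.107 and 0.0809, and with effective lengths as an offset it was 0.0620 and 0.0431. Neither passed in another contrast.

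KMT2D (ENSSSAT00000120299, chr13:42089499-42228064), in mammals a histone methyltransferase found at enhancers, was 22246 bases long. It had 83.4 ± 12.6 CPM in SP-hold SW and 60.4 ± 9.17 in SP-hold FW, and 49.3 ± 9.12 in SPLL SW and 37.0 ± 1.30 in SPLL FW. After SW it thus had log2 fold changes of 0.46 (SE 0.17, edgeR FDR = 0.385) in SP-hold and 0.42 (SE 0.20, edgeR FDR = 0.501) in SPLL, of the same sign in both, unlike KMT2E. It was lower in SPLL than in SP-hold in SW, by -0.76 (SE 0.17, edgeR FDR = 0.0424), a call lost in 9 of 13 fits with 1 library left out, with the length trend removed (FDR = 0.0721) and with effective lengths as an offset (FDR = 0.0985). KMT2D and the other EP300 transcripts were named because the study had selected them on these libraries, so their direction is no independent evidence.

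A wider list of 44 named chromatin transcripts, all of them tested, was set beside the 3 genes. It held genes of acetyltransferase, deacetylase and corepressor complexes, methyltransferases and their cofactors, remodelers, readers, histones and histone chaperones. The deacetylase and corepressor class held only sap18 and mbd3. The comparison of SPLL with SP-hold in SW gave the most calls, 9 higher and 6 lower at FDR 0.05, where 1.43% and 1.63% of all transcripts were called, 3.05% in all. The median log2 fold change was 0.25 over the list and -0.03 over all transcripts tested. Of the 44, 16 had been selected by the study on these libraries, and they gave 13 of the 15 calls. Of the 28 named through their abundance alone, 2 passed, both higher.

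Of the 9 higher calls, 6 were among the 23 histones and histone chaperones, none of which was called lower. With SW in SPLL 0 of these 23 were called, where 0.269% of all transcripts passed, too small a share for the 0 to be read as a result. Linker histone h1-10 was at 96.9 ± 20.5 CPM in SP-hold FW, 33.0 ± 3.82 in SP-hold SW, 116 ± 9.57 in SPLL FW and 94.7 ± 25.6 in SPLL SW, so SP-hold SW was the group apart. In SW it was higher in SPLL by 1.52 (SE 0.23, edgeR FDR = 0.0146), and the variant histone h2az2b by 1.42 (SE 0.22, edgeR FDR = 0.0148). The histone chaperone anp32b (ENSSSAT00000004226) was higher by 1.07 (SE 0.13, edgeR FDR = 0.00876), and the Mediator subunit MED10 by 0.85 (SE 0.13, edgeR FDR = 0.0140). These 4 kept their call with the length trend removed and with effective lengths as an offset. The study had selected all 4 on these libraries, so their calls are no independent evidence. Without SP-hold SW replicate 1, anp32b alone kept it, and the FDR was 0.0778 for h1-10, 0.0714 for h2az2b and 0.0668 for MED10. Without SP-hold SW replicate 3 that of h2az2b was 0.0633.

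The lower calls were transcripts of 3492 to 22246 bases, against 1206 to 12760 bases for the higher calls. All 6 lower calls came from transcripts that the study had selected on these libraries. Beside KMT2D and the EP300 relatives they included jarid2b, a cofactor of the Polycomb complex (-0.90, SE 0.18, edgeR FDR = 0.0350), and one transcript of the remodeler Srcap (ENSSSAT00000112254, -1.03, SE 0.20, edgeR FDR = 0.0330). With 1 library left out the FDR reached 0.134 for jarid2b and 0.136 for Srcap. The other Srcap transcript (ENSSSAT00000059266) missed the threshold (-0.96, SE 0.23, edgeR FDR = 0.0502). Of the 6 lower calls, 1 held under both treatments of length, that of ENSSSAT00000182594. With effective lengths as an offset the list gave 5 higher and 1 lower, and all transcripts 130 higher and 182 lower. With the length trend removed the list gave 8 higher and 7 lower, and all transcripts 713 and 577. The 15 calls also fell to 1 without SP-hold SW replicate 1, to 3 without SP-hold SW replicate 3, to 4 without SPLL SW replicate 1 and to 7 without SPLL SW replicate 4. Calls over all transcripts fell in the same fits. From 662 higher and 755 lower they went to 59 and 79, 104 and 147, 111 and 172, and 222 and 308, in that order. Leaving out SP-hold FW replicate 2 or 4 gave 8 or 9 in the list. Over all transcripts these fits gave 227 higher and 326 lower, or 254 and 382.

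**Figure D5:**
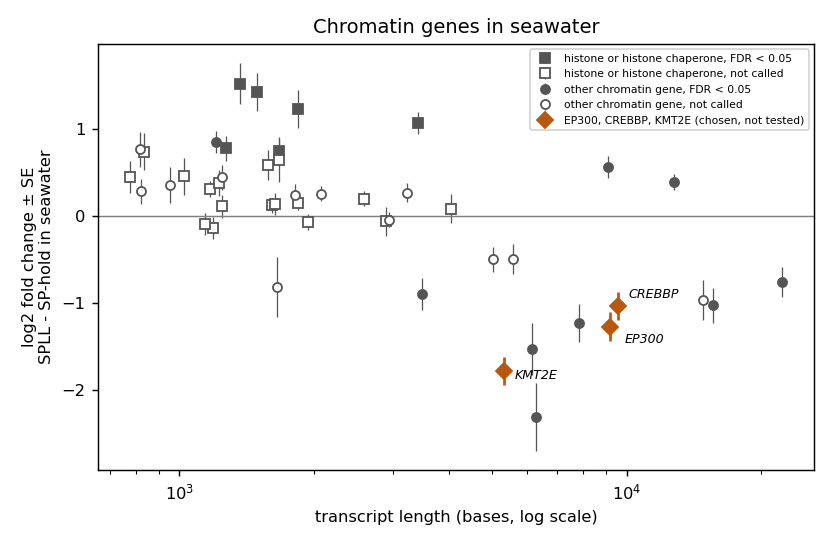
Log2 fold change ± SE of SPLL against SP-hold in SW for 44 chromatin transcripts and the 3 genes, against transcript length on a log axis. Filled symbols passed FDR 0.05. Transcripts called lower are 3492 bases or longer, and called histones and chaperones lie above 0.

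Other contrasts gave few calls in the list. With SW in SP-hold, 0 rose and 1 fell (all transcripts 0.0345% and 0.0496%, 0.0841% in all), with a list median of -0.13 against -0.01 over all transcripts. The 1 was h1-10, from 89.7, 79.9, 127 and 91.5 CPM in FW to 28.9, 33.5 and 36.5 CPM in SW (-1.56, edgeR FDR = 0.0498). That call was lost with effective lengths as an offset (FDR = 0.0640) and without any 1 of 11 libraries. Light history in FW gave 0 calls in the list in edgeR, where 0.0905% of all transcripts passed, 0.0108% higher and 0.0797% lower. At an unadjusted edgeR p under 0.05 stood 16 of 44, against 8.69% of all transcripts. Of these, 12 were among the 16 that the study had selected on these libraries, and 4 among the 28 named through abundance alone. DESeq2 made 9 calls in the list and 1507 over all transcripts (3.25%).

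With SW in SPLL, 2 list members rose and 0 fell (all transcripts 0.19% and 0.0797%, 0.269% in all). The remodeler chd2 had 49.7 and 57.3 CPM in SPLL FW and 102, 97.9, 80.5 and 91.6 CPM in SPLL SW (log2 fold change 0.80, SE 0.11, edgeR FDR = 0.0170). The acetyl-histone reader brd2a went from 15.7 and 14.4 CPM to 33.6, 26.3, 25.6 and 27.9 CPM (0.92, SE 0.15, edgeR FDR = 0.0395). In SP-hold they were at 70.9 ± 2.81 and 19.2 ± 1.22 CPM in SW against 81.8 ± 3.15 and 28.0 ± 3.48 CPM in FW. Their changes with SW differed between light histories, by 1.00 (SE 0.14, edgeR FDR = 0.0250) for chd2 and 1.46 (SE 0.20, edgeR FDR = 0.0198) for brd2a, the opposite sign to that of the 3 genes. Of all transcripts 0.226% passed that test, 0.147% with a positive and 0.0797% with a negative difference. With the length trend removed chd2 lost both calls (FDR = 0.139 and 0.0903), whereas brd2a kept both (FDR = 0.0492 and 0.0115). Without SPLL FW replicate 1 the chd2 FDR for SW in SPLL was 0.0731, and without SPLL FW replicate 2 that of brd2a was 0.199, the highest of 9 lost calls in 13 fits. The interaction of chd2 lost its call in 4 of 13 such fits (FDR up to 0.0575), and that of brd2a in 0 (FDR up to 0.0474). The study had selected both on these libraries.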

How the data were processed

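RNA of 13 SVs was sequenced single-end after TruSeq stranded mRNA preparation. The authors trimmed reads with Cutadapt and used Salmon 1.1.0 with GC correction on Ssal_v3.1, and deposited estimated counts (expected counts, not whole) and TPM per transcript. By the methods, 3 libraries with few reads had been left out. Positions and names came from the supplementary tables (1266 named transcripts of 1425 listed).

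Counts were rounded and a minimum of 0.77 for the median CPM left 46395 transcripts for edgeR 4.0.16 (TMM, glmQLFit, glmQLFTest, a mean for each of the 4 groups without a block). FDR is the Benjamini-Hochberg value over these, with a threshold of 0.05 for contrasts and 0.01 for the 4-group test. The latter called 29 transcripts (0.0625%), fewer than the study reported from its own edgeR test. SE is the log2 fold change over the square root of F. With 2 libraries, SPLL FW borrows its spread from the other groups. Alternatives were DESeq2 1.42.0, upper-quartile factors, other filters, limma 3.58.1 on log2(TPM + 0.5 or 0.1), a replicate block, removal of a lowess length trend (span 0.3), effective lengths as an offset and leaving out each library. The scripts were tested on simulated data.

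The members and lists were chosen with earlier results of these data known. Named beside the members are all transcripts called Ep300, Crebbp or Kmt2, the 5 named transcripts most correlated with each (1 is not reported here), up to 4 list members per contrast with the lowest p, and those called Srcap, Brd, Chd or Jarid.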

Additional observations from a re-analysis of the deposited data

Results flagged for a closer look

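EP300 in SP-hold FW replicate 1, at 24.3 CPM, lay far above the other 3 libraries of its group, whose values were within 18.3 to 18.8 CPM. It was 1 flag among 12 groups of values checked in this way, each of which chance would flag in about 5% of cases. In CPM, every KMT2E value in SW lay above every FW value in SP-hold and below every FW value in SPLL, and the changes differed by -1.51 on the log2 scale. In TPM the groups overlapped in both light histories. That difference was not tested, since KMT2E was chosen on these groups. The changes of chd2 and brd2a with SW differed between the light histories by 1.00 and 1.46 on the log2 scale in the edgeR interaction term (FDR = 0.0250 and 0.0198), in the direction opposite to KMT2E. The study had selected both transcripts on these libraries, and 0.226% of all transcripts passed this test. Both calls were lost with a replicate block (edgeR FDR = 0.129 and 0.121) and without a filter (edgeR FDR = 0.134 and 0.0784). That of chd2 was also lost with the length trend removed (edgeR FDR = 0.0903).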

How the results depend on the processing

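Over 330 recomputed differences of EP300, CREBBP and KMT2E, 304 moved by less than the spread between replicates, 26 moved further, and leaving out 1 library moved none further. Some of the 330 come from contrasts that the left-out library does not enter. Those values were nearly fixed in advance, so the 304 are no measure of stability. Counts below are given for SW in SP-hold, SW in SPLL, light history in FW, light history in SW and their interaction, in that order, where the main values were 1, 2, 0, 15 and 2 in the chromatin list and 39, 125, 42, 1417 and 105 over all transcripts, with 29 in the 4-group test. DESeq2 gave 7, 5, 9, 23 and 5 in the list, 1374, 2301, 1507, 5478 and 2095 over all, and 3443. Upper-quartile factors gave 0 in the list for SW in SP-hold. Without a filter the list gave 0 for SW in SP-hold, 0 for SW in SPLL, 3 for light history in SW and 0 for the interaction, and all transcripts gave 31, 15, 197 and 44 from SW in SPLL onward and 10 in the 4-group test. A median CPM of at least 5 gave 2 in the list for SW in SP-hold, and over all transcripts 27 and 2318 for light history in FW and SW, and 18 in the 4-group test. In limma on log2(TPM + 0.5) the list gave 0 throughout, and all transcripts 22, 7, 2, 67 and 13, with 15 in the 4-group test. With a pseudocount of 0.1 the list gave 0 throughout, and all transcripts 38, 12, 47 and 25 from SW in SPLL onward. On these TPM scales the median of all transcripts shifted by up to -0.34.

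In limma on log2(TPM + 0.5), and with 0.1 after it, SW in SPLL gave 0.30 and 0.35 for EP300, 0.38 and 0.42 for CREBBP and -0.17 and -0.19 for KMT2E. The interaction gave -0.50 and -0.52 for EP300 and -1.06 and -1.11 for KMT2E. Light history in FW gave -0.54 and -0.57 for KMT2E, and with 0.1 -0.73 for EP300 and -0.46 for CREBBP. With the length trend removed, light history gave -0.17 in FW and -0.99 in SW for EP300, 0.11 and -0.78 for CREBBP and -1.53 in SW for KMT2E, and the list had 1 call for SW in SPLL, 1 for light history in FW and 1 for the interaction. With effective lengths as an offset, chosen after seeing the data, SW in SPLL gave 0.13 for EP300 and -0.42 for KMT2E, light history in SW -0.99 and -1.39, and the interaction -0.46, -0.59 for CREBBP and -1.05. The list then had 0 calls for SW in SP-hold and 6 for light history in SW, and all transcripts 312 for light history in SW, 67 for the interaction and 11 in the 4-group test. The cause was not tested.

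The replicate numbers gave no pairing: 16 pairs of libraries with the same number deviated together with correlations of -0.03 to 0.09. With the replicate block the list had 0, 0, 0, 3 and 0 calls, all transcripts 4, 1, 2, 146 and 3, and the 4-group test 0 (29 without it).

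Leaving out each library in turn gave 0 to 2, 0 to 2, 0 to 3, 1 to 14 and 1 to 2 calls in the list, 32 to 79, 84 to 511, 34 to 274, 138 to 1346 and 61 to 297 over all transcripts, and 3 to 64 in the 4-group test. For SW in SP-hold EP300 then stood at 0.65 to 0.82, CREBBP at 0.81 to 0.96 and KMT2E at 0.64 to 0.87. For SW in SPLL EP300 stood at -0.26 to 0.12, CREBBP at -0.07 to 0.21 and KMT2E at -0.87 to -0.60. With 242 to 1575 reads per library, the number of libraries, 2 in SPLL FW, limits precision, and the error of sharing reads between gene copies was not measured.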
